A study of Mus musculus with 6 samples.

Results

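The histone lysine demethylases described here are 9 enzymes encoded on autosomes, Kdm1a, Kdm1b, Kdm2a, Kdm2b, Kdm3b, Kdm4a, Kdm5a, Kdm5b and Kdm6b, measured in mouse fetal liver (FL) with and without Pogz. They were taken from a list of names, and every probe set annotated to exactly 1 of these genes was kept, which gave 29 of the 45037 probe sets tested. The 9 genes stand among 18193 genes with such a probe set, and each gene is led by its brightest one. A further probe set, 1440346_at, is annotated to Kdm6b together with another gene and was left out.

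Pogz encodes a nuclear zinc-finger protein. Livers came from E14.5 (embryonic day) embryos on a C57BL/6 congenic background, 3 of them Pogz+/+ (Pogz-WT) and 3 Pogz-/- (Pogz-KO), and RNA from each liver was labelled and hybridized to 1 Affymetrix 3' expression array. The Pogz-KO allele lacks exons 13 to 19, which encode part of the zinc fingers and the CENPB and DDE domains, in every cell, since the targeted exons were deleted in the germline with a β-actin-cre transgene. The comparison asks which genes differ in FL RNA when Pogz is lost. The livers were dispersed to single cells and not sorted, so fewer cells of a type and less RNA per cell cannot be told apart.

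Histone lysine demethylases remove methyl groups from histone tails and so reverse the action of histone methyltransferases. Kdm1a and Kdm1b use flavin and act on mono- and dimethylated H3K4. The others are Jumonji enzymes that need iron and 2-oxoglutarate: the Kdm2 proteins act mainly on H3K36, Kdm3b on H3K9, Kdm4a on H3K9 and H3K36, Kdm5a and Kdm5b on H3K4, and Kdm6b on H3K27. In blood formation Kdm1a is known as the partner of the repressors Gfi1 and Gfi1b in the CoREST complex, which is needed for red cell maturation.

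Several features of the arrays touch every value below. Pogz-WT replicate 1 stood apart: its correlation with the other arrays was 0.794 to 0.810, and its ratio of 3' to 5' signal for β-actin was 52.3, against 5.50 and 6.63 in the other Pogz-WT arrays and 3.72 to 4.09 in Pogz-KO. The Gapdh ratio was 7.37 to 15.3 in Pogz-WT and 4.87 to 5.08 in Pogz-KO. Neither ratio overlapped between genotypes (p = 0.1 each in a two-sided exact permutation test, which cannot go lower with 3 against 3). Median intensity was 35.9 to 54.3 in Pogz-WT and 29.7 to 31.5 in Pogz-KO. The markers of fetal liver were present, with log2 signals of 14.37 to 15.40 in Pogz-WT and 13.60 to 14.02 in Pogz-KO for the hepatoblast gene Afp, and of 14.29 to 15.48 and 13.54 to 13.71 for the red cell anion exchanger Slc4a1. The part of RNA quality in the results was not tested. Values are therefore given over all 6 arrays first, and then for the 5 arrays without Pogz-WT replicate 1.

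Over the 6 arrays no demethylase passed the test. In limma fitted over all genes, 0 of 9 met both thresholds, a Benjamini-Hochberg adjusted p under 0.05 and a fold change of 1.5 or more, where 0.0% of all genes did; 3 of 9 (Kdm1a, Kdm5a and Kdm5b) had an unadjusted p under 0.05, as did 2389 genes in all. For comparison, the methods' t-test, which is unpaired, called 0 genes too, with 2412 at an unadjusted p under 0.05. The paper names that test for its statistics in general. For the arrays it describes the GeneSpring software with a 1.5-fold cutoff and a false discovery rate of 0.05. That array procedure was not rerun here, so the count of 0 is no check of the paper's gene list. When limma let the variance follow the signal and down-weighted outlying variances (trend and robust), 0.121% of genes were called, 0 of the 9 among them. In the same kind of fit without Pogz-WT replicate 1 (the 5-array fit), Kdm1a, Kdm5a and Kdm5b had an adjusted p under 0.05 and were higher in Pogz-KO, against 2.41% of all genes. Of these, Kdm5a and Kdm5b were at least 1.5-fold higher, where 1.73% of genes were. After quantile normalization of the 5 arrays Kdm5a and Kdm5b were called and Kdm1a was not, with 1.42% of genes called higher. Plain limma on the same 5 arrays called 0 genes, with 2385 at an unadjusted p under 0.05.

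Without any fit, all 3 Pogz-KO arrays lay above all 3 Pogz-WT arrays for 5 of the 9 genes, Kdm1a, Kdm3b, Kdm4a, Kdm5a and Kdm5b, and for 10.8% of all genes. For 0 of the 9 were all Pogz-KO arrays below all Pogz-WT arrays, which held for 16.3% of genes. Among probe sets, 10 of 29 were wholly above in Pogz-KO, against 9.1% of all probe sets. The counts depended on the scale. After quantile normalization 5 of the 9 genes were wholly above and 1 wholly below, and once every array was centred on its median 8 were wholly above, where 11.6% and 26.5% of all genes were; 12.4% of all genes were wholly below after quantile normalization.

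**Figure D1:**
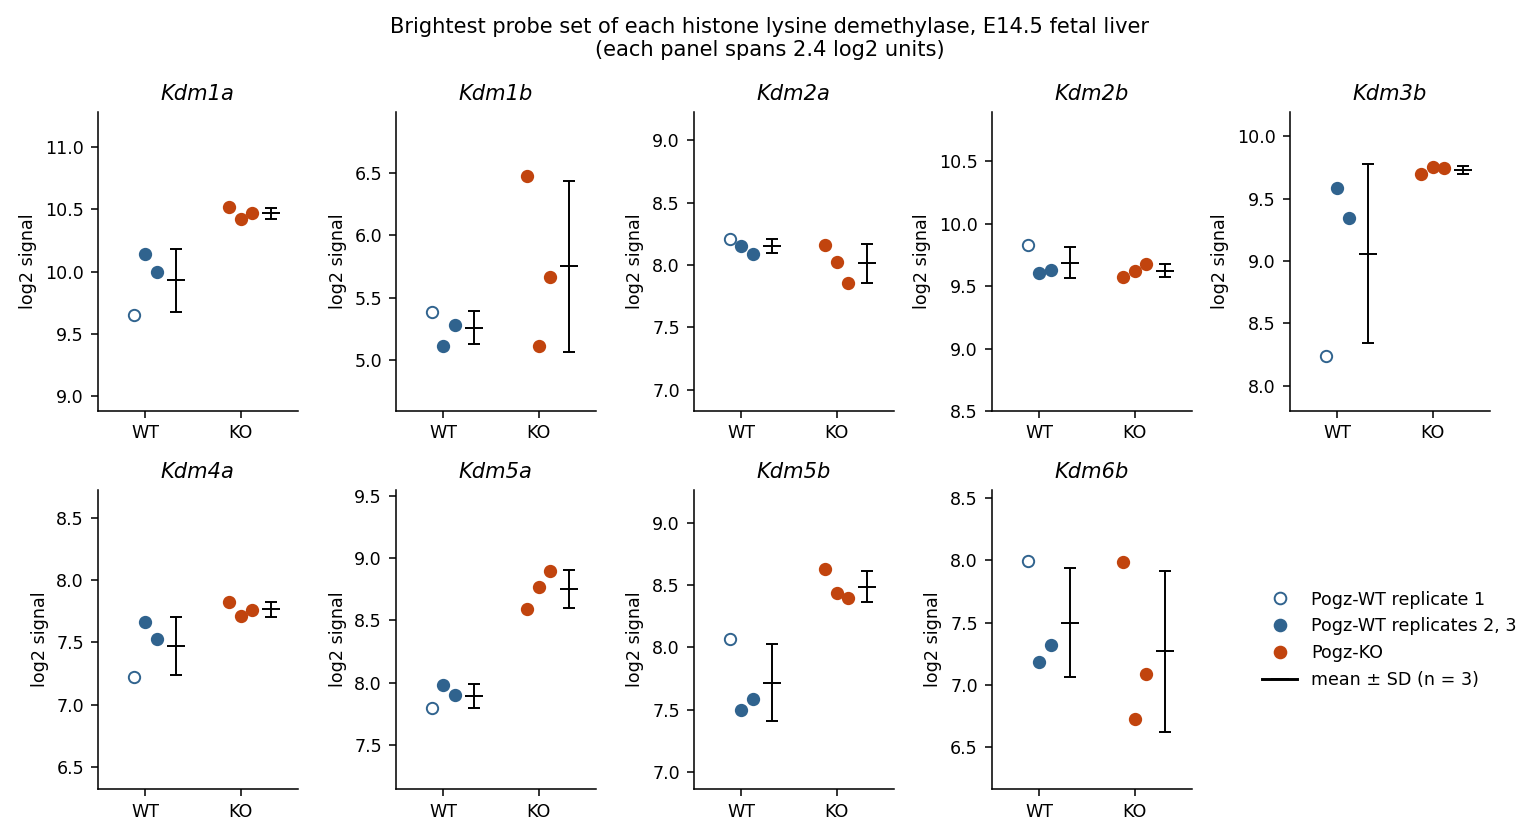
Log2 signal of the brightest probe set of each of the 9 demethylases in every array (y axis; each panel spans the same number of log2 units), with Pogz-WT on the left and Pogz-KO on the right of each panel; open circles are Pogz-WT replicate 1 and bars are mean ± SD of 3 arrays. Pogz-KO lies wholly above Pogz-WT for Kdm1a, Kdm3b, Kdm4a, Kdm5a and Kdm5b, and the open circle is the lowest point for Kdm1a, Kdm3b, Kdm4a and Kdm5a but the highest Pogz-WT point for Kdm5b.

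The H3K4 demethylases of the Kdm5 family had the lowest adjusted p-values of the 9 genes in both fits. Kdm5a, which was first found as a partner of the retinoblastoma protein, had log2 signals of 7.79, 7.98 and 7.90 in Pogz-WT replicates 1 to 3 and of 8.59, 8.77 and 8.89 in Pogz-KO on its brightest probe set, 1452360_a_at. The arrays did not overlap, and Pogz-WT replicate 1 sat close to the other Pogz-WT arrays. The mean was 7.89 ± 0.09 in Pogz-WT and 8.75 ± 0.15 in Pogz-KO (SD, n = 3 each). The log2 difference was 0.86 over 6 arrays (SE 0.19, 95% interval 0.38 to 1.34, limma adjusted p = 0.316), a 1.81-fold higher signal. With trend and robust over the 6 arrays the adjusted p was 0.0884. In the 5-array fit the log2 difference was 0.81 (SE 0.14, 95% interval 0.50 to 1.12, adjusted p = 0.00913), and it was 0.76 after quantile normalization (adjusted p = 0.0168).

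The 6 probe sets of Kdm5a did not move together. Beside the brightest one, 1437105_at was wholly higher in Pogz-KO, at 7.36, 7.56 and 7.33 in Pogz-WT and 8.42, 8.48 and 8.61 in Pogz-KO. Its log2 difference was 1.08 over 6 arrays (adjusted p = 0.352 over all probe sets) and 1.05 in the 5-array fit (adjusted p = 0.00621). The neighbouring probe set 1437106_at, of similar brightness, overlapped between genotypes, at 8.20, 7.42 and 7.80 in Pogz-WT and 7.44, 7.82 and 7.92 in Pogz-KO, with a log2 difference of -0.08. The 3 dimmer ones gave -0.52 (1444842_at), -0.22 (1441318_at) and -1.27 (1445541_at) over 6 arrays, each with overlapping genotypes. The last of these was dimmer than the median of all probe sets. It read 1.61, 4.07 and 4.26 in Pogz-WT and 2.97, -0.94 and 4.10 in Pogz-KO (SE of the difference 1.48). The mean over all 6 probe sets, in which 1445541_at weighs as much as each of the others, was -0.03, of opposite sign to the brightest. Where each probe set lies in the Kdm5a transcripts was not analysed here.

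Kdm5b, a second H3K4 demethylase, had log2 signals of 8.07, 7.49 and 7.59 in Pogz-WT and of 8.63, 8.44 and 8.40 in Pogz-KO on 1427143_at. The genotypes did not overlap, and Pogz-WT replicate 1 was the Pogz-WT array nearest to Pogz-KO. The mean was 7.72 ± 0.31 in Pogz-WT and 8.49 ± 0.12 in Pogz-KO (SD, n = 3 each). The log2 difference was 0.77 over 6 arrays (SE 0.24, 95% interval 0.18 to 1.36, adjusted p = 0.339; 0.132 with trend and robust). It was 0.95 in the 5-array fit (SE 0.15, 95% interval 0.62 to 1.27, adjusted p = 0.00539), a 1.93-fold higher signal, and 0.90 after quantile normalization (adjusted p = 0.0103).

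A second Kdm5b probe set, 1427142_s_at, was also wholly higher in Pogz-KO, at 5.61, 4.67 and 5.34 in Pogz-WT and 6.63, 5.86 and 6.01 in Pogz-KO. It did not pass the test in either fit, with a log2 difference of 0.96 over 6 arrays (adjusted p = 0.419) and of 1.16 in the 5-array fit (adjusted p = 0.135). The suffix _s_at marks probes that can match transcripts of more than 1 gene. The remaining probe sets, 1457482_at and 1442278_at, overlapped between genotypes and differed by -0.09 and -0.05.

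**Figure D2:**
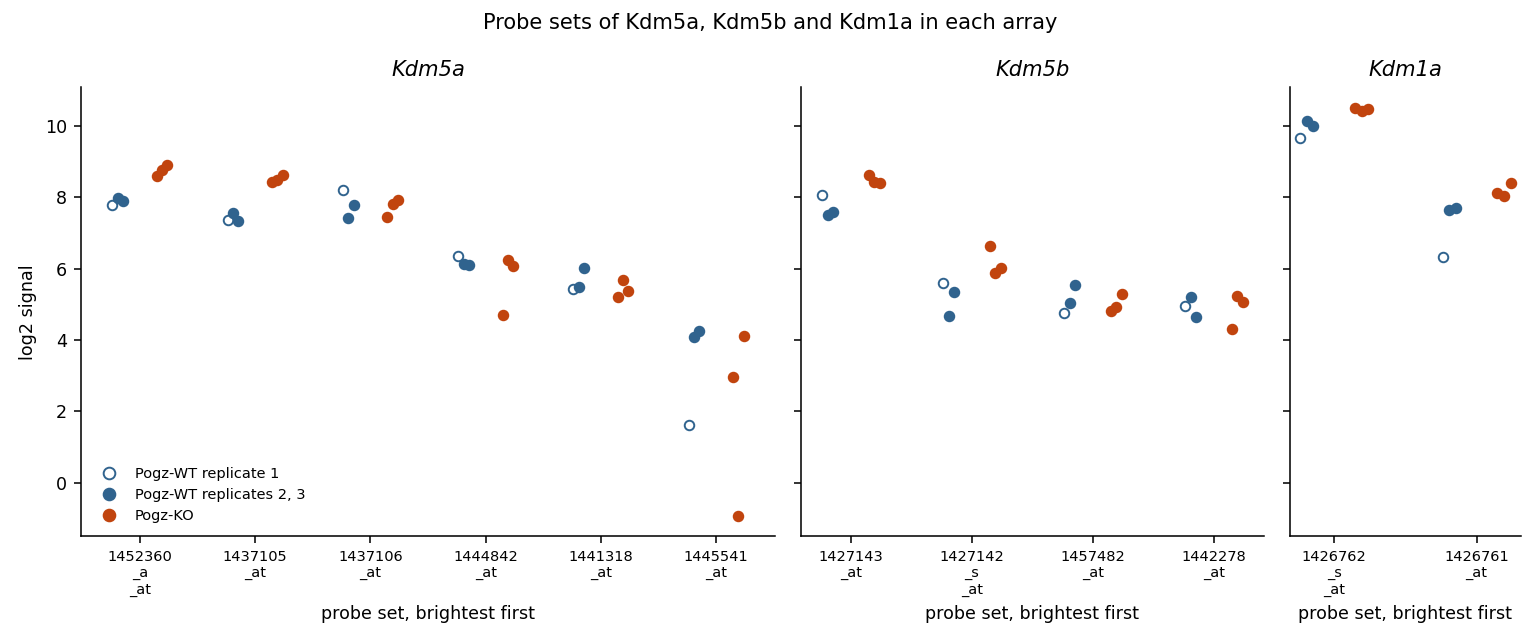
Log2 signal (y axis) of every single-gene probe set of Kdm5a, Kdm5b and Kdm1a in each array, probe sets ordered from bright to dim; open circles are Pogz-WT replicate 1, blue points the other Pogz-WT arrays and red points Pogz-KO. In each gene the genotypes separate on 2 probe sets, 1452360_a_at and 1437105_at for Kdm5a, and the other 4 of Kdm5a and 2 of Kdm5b overlap.

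Kdm1a, the catalytic subunit of CoREST, differed less. Its brightest probe set, 1426762_s_at, also has the suffix of probes that can match more than 1 gene. Its log2 signals there were 9.65, 10.14 and 10.00 in Pogz-WT and 10.51, 10.42 and 10.47 in Pogz-KO. The genotypes did not overlap, and Pogz-WT replicate 1 was the lowest array. The log2 difference was 0.54 over 6 arrays (SE 0.21, 95% interval 0.01 to 1.07, adjusted p = 0.380). In the 5-array fit it was 0.40 (SE 0.10, adjusted p = 0.0428), a 1.32-fold higher signal, and after quantile normalization the adjusted p was 0.0809. In the fit over all probe sets, which adjusts over more tests, the same probe set had an adjusted p of 0.0636 on the 5 arrays.

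The other Kdm1a probe set, 1426761_at, read 6.32, 7.64 and 7.71 in Pogz-WT and 8.13, 8.03 and 8.40 in Pogz-KO. It was wholly higher in Pogz-KO, but Pogz-WT replicate 1 differed from the mean of the other Pogz-WT arrays by -1.36. Its log2 difference between genotypes was 0.96 over 6 arrays (adjusted p = 0.446) and 0.51 without that array (adjusted p = 0.152).

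Kdm1b, the second flavin-dependent enzyme, which is known for H3K4 demethylation in oocytes, was measured by 1 probe set. Its log2 signals were 5.38, 5.11 and 5.28 in Pogz-WT and 6.47, 5.11 and 5.67 in Pogz-KO. The genotypes overlapped, since Pogz-KO replicate 2 read the same as the lowest Pogz-WT array at this rounding. The log2 difference was 0.49 over 6 arrays (95% interval -0.46 to 1.45, adjusted p = 0.554), and leaving out Pogz-KO replicate 1 took it to 0.13.

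Promoter sequences of the demethylases were read from a table of RefSeq promoters (build GRCm38.p6, 250 bases before to 50 after a transcript start), in which 8 sequences for 5 of the 9 genes were used here. Kdm5b and Kdm1a are shown because they are the genes past the threshold in the 5-array fit that had an entry. Both strands were searched for a GC box, spelled GGGCGG. The CCAAT box was searched by those letters. For the cAMP response element a half-site with flank, TGACGT, was used and not the full element. A GATA motif was spelled AGATAA. An ETS motif was spelled CCGGAAG. Matches are in capitals. Kdm5b lies on the forward strand at chr1:134559928-134560227, and Kdm1a on the reverse strand at chr4:136602674-136602973.
Kdm5b: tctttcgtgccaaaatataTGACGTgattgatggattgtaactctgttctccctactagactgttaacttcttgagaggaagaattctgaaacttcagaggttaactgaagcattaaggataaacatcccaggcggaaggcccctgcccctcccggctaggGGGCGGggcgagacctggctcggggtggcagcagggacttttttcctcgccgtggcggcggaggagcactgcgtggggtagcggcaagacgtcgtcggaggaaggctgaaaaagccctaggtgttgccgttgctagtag
Kdm1a: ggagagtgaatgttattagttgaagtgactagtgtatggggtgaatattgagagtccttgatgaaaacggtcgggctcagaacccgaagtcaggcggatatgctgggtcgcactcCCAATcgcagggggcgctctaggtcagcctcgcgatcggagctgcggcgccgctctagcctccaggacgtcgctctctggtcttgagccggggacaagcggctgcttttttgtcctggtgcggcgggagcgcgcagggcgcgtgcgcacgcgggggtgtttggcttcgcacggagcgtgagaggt
The Kdm5b sequence held 1 TGACGT at position -231 from the start and 1 GC box at -89, with 54.7% G and C and 17 CpG. The Kdm1a sequence held 1 CCAAT at -135 and none of the other motifs, with 61.3% G and C and 29 CpG. No matches overlapped in these 2 sequences. Over the 32851 promoters of the table, 35.7% held a GC box, 37.4% a CCAAT box, 7.51% a cAMP response element core, 11.2% a GATA motif and 8.86% an ETS motif. Kdm4a, whose signal did not pass the test in either fit, held 1 CCAAT and no GC box. Kdm1b, with overlapping genotypes, held 6 GC boxes. Kdm2b, whose genotypes overlapped too, has several sequences. The sequence at chr5:122989050-122989349 held 1 TGACGT, at -24, and 1 GC box. Those starting at chr5:122900301 and chr5:122900318 each held 6 GC boxes and 1 CCAAT. None of the motifs was found at chr5:122988458-122988757.

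The enzymes acting on H3K9 were higher on their brightest probe sets but did not pass the test in either fit. Kdm3b, an H3K9 demethylase, had log2 signals of 8.24, 9.59 and 9.35 in Pogz-WT and of 9.69, 9.75 and 9.74 in Pogz-KO on 1428320_at. The genotypes did not overlap, and Pogz-WT replicate 1 was far below the rest. The log2 difference was 0.67 over 6 arrays (SE 0.39, 95% interval -0.30 to 1.65, adjusted p = 0.453) and 0.26 without that array (SE 0.11, adjusted p = 0.241). With median centring added to the 5-array fit, Kdm3b differed by 0.54 (1.45-fold, limma adjusted p = 0.0134). Its other probe set, 1458417_at, went the other way in Pogz-WT replicate 1, which read 6.26 against 4.76 and 5.09 in the other Pogz-WT arrays and 5.93 to 5.97 in Pogz-KO, so the genotypes overlapped. Its log2 difference in the 5-array fit was 1.02 (adjusted p = 0.149).

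Kdm4a, which acts on H3K9 and H3K36, had log2 signals of 7.22, 7.67 and 7.53 in Pogz-WT and of 7.82, 7.71 and 7.76 in Pogz-KO on 1435340_at. The genotypes did not overlap, but the lowest Pogz-KO and the highest Pogz-WT array lay close together. The log2 difference was 0.29 over 6 arrays (SE 0.21, 95% interval -0.22 to 0.81, adjusted p = 0.521) and 0.17 in the 5-array fit (adjusted p = 0.619). The dim probe set 1446699_at gave -1.05 over 6 arrays with overlapping genotypes (adjusted p = 0.554).

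The H3K36 demethylases Kdm2a and Kdm2b, whose CXXC zinc finger binds unmethylated CpG islands, did not differ beyond the spread on their brightest probe sets. Kdm2a read 8.21, 8.16 and 8.09 in Pogz-WT and 8.16, 8.02 and 7.86 in Pogz-KO on 1455942_at. The arrays overlapped, and the log2 difference was -0.14 (SE 0.19, 95% interval -0.61 to 0.34, adjusted p = 0.741). The second brightest, 1438890_at, read 7.19, 7.91 and 8.03 in Pogz-WT and 7.44, 7.68 and 7.46 in Pogz-KO, which overlapped. It differed by -0.18 over 6 arrays (limma adjusted p = 0.813) and by -0.44 in the 5-array fit (adjusted p = 0.221). Of the 7 probe sets of Kdm2a, 4 were higher in Pogz-KO over 6 arrays. All of these but 1435329_at were dimmer than the median of all probe sets. On 1435329_at Pogz-KO was wholly higher, at 6.77, 7.14 and 6.95 in Pogz-WT and 7.54, 7.87 and 7.85 in Pogz-KO. Its log2 difference was 0.80 over 6 arrays (adjusted p = 0.389) and 0.71 in the 5-array fit (adjusted p = 0.0729).

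Kdm2b, which brings the variant Polycomb complex PRC1.1 to CpG islands, read 9.83, 9.61 and 9.63 in Pogz-WT and 9.57, 9.62 and 9.68 in Pogz-KO on 1459861_s_at. This too is an _s_at probe set. The genotypes overlapped, and the log2 difference was -0.06 (SE 0.19, 95% interval -0.52 to 0.40, adjusted p = 0.883). In the 5-array fit it was 0.01 (SE 0.10, 95% interval -0.22 to 0.24, adjusted p = 0.984). The second probe set, 1452198_at, gave 0.24 over 6 arrays (adjusted p = 0.705).

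Kdm6b, an H3K27 demethylase induced in inflammatory macrophages, gave opposite signs on its probe sets. The brightest, 1447612_x_at, whose suffix marks probes that may bind unrelated transcripts, read 8.00, 7.19 and 7.32 in Pogz-WT and 7.99, 6.73 and 7.09 in Pogz-KO. The genotypes overlapped, and the log2 difference was -0.23 (SE 0.42, 95% interval -1.28 to 0.81, adjusted p = 0.803). On 1456610_at the values were 3.55, 5.86 and 6.42 in Pogz-WT and 7.63, 7.15 and 7.01 in Pogz-KO, without overlap. This was the largest log2 difference among the 29 probe sets, 1.99 over 6 arrays (adjusted p = 0.422). Without Pogz-WT replicate 1, which differed from the mean of the other Pogz-WT arrays by -2.59 on the log2 scale, it was 1.12 (adjusted p = 0.0468), and the adjusted p after quantile normalization was 0.0530. The third probe set, 1442643_at, differed by 0.37 over 6 arrays with overlapping genotypes, and by 0.76 in the 5-array fit (adjusted p = 0.310).

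Over all 29 probe sets, 4 had an adjusted p under 0.05 in the 5-array fit over probe sets, where 1.45% of all probe sets were higher at that threshold. They were 1452360_a_at and 1437105_at of Kdm5a, 1427143_at of Kdm5b and 1456610_at of Kdm6b, and probe sets of 1 gene share its RNA and are not replicates. Over 6 arrays 17 of the 29 were higher in Pogz-KO and 12 lower, where 38.2% of all probe sets were higher, and 0 passed the test. After quantile normalization 21 of the 29 were higher, where 50.1% of all probe sets were. Of the 29, 6 had a mean log2 signal below 4.91, the median of all probe sets.

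**Figure D3:**
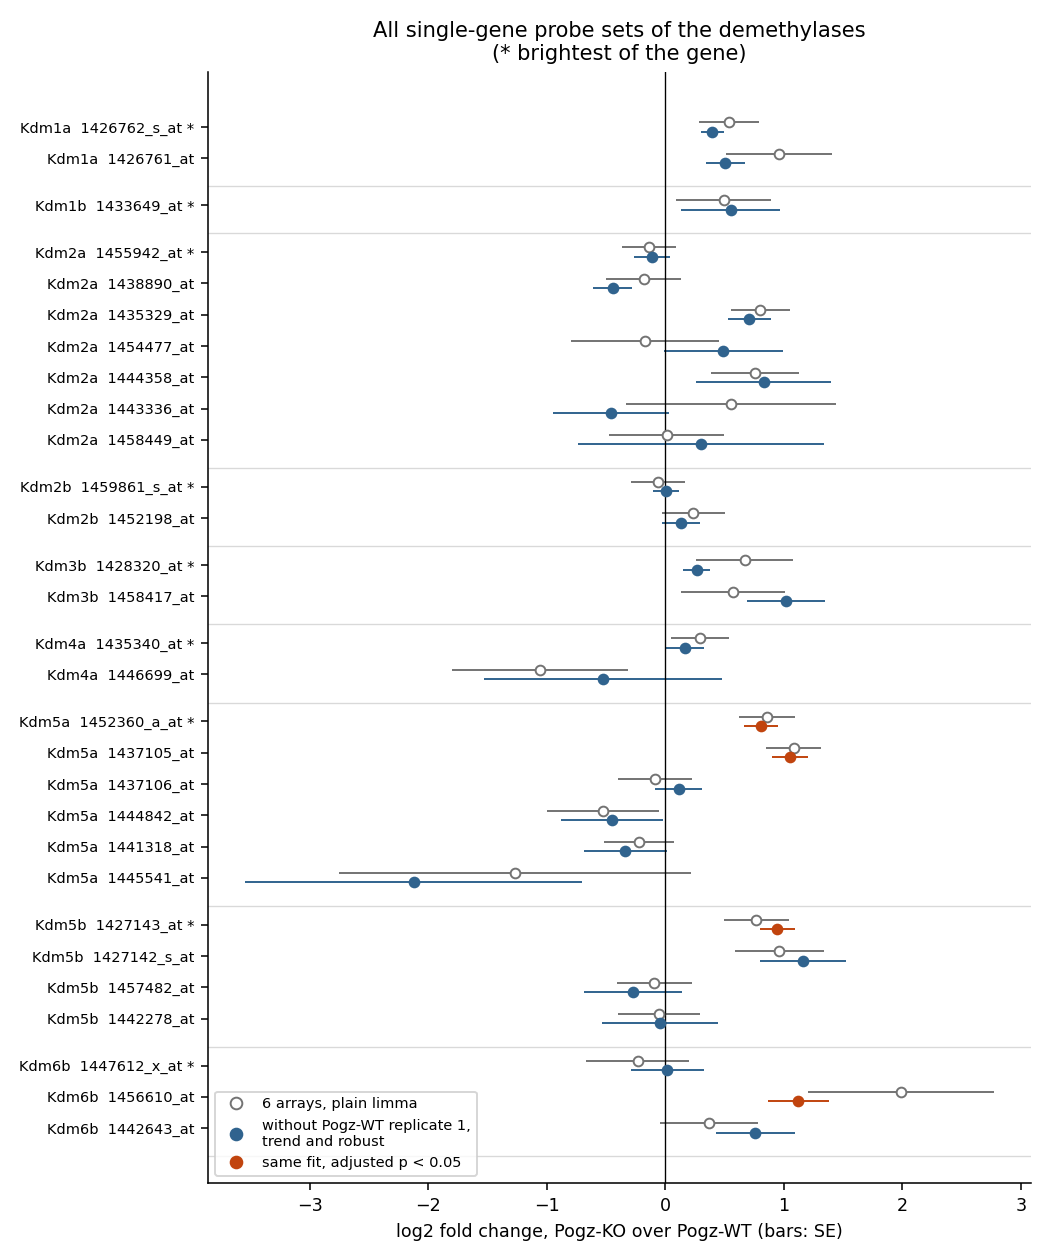
Log2 fold change of Pogz-KO over Pogz-WT (x axis, bars are SE) for the 29 probe sets, grouped by gene with an asterisk on the brightest; open circles are limma over 6 arrays and filled circles limma with trend and robust without Pogz-WT replicate 1, red where the adjusted p over all probe sets is under 0.05. Filled circles are red for 2 probe sets of Kdm5a, 1 of Kdm5b and 1 of Kdm6b, and over 6 arrays probe sets of Kdm2a, Kdm2b, Kdm4a, Kdm5a, Kdm5b and Kdm6b fall on both sides of 0.

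Pogz-WT replicate 1 moved the 9 genes in different directions. Relative to the mean of the other Pogz-WT arrays its log2 signal differed by -1.22 for Kdm3b, -0.42 for Kdm1a, -0.38 for Kdm4a and -0.15 for Kdm5a. It differed by 0.08 for Kdm2a, 0.19 for Kdm1b, 0.21 for Kdm2b, 0.53 for Kdm5b and 0.75 for Kdm6b. Leaving it out therefore made the difference smaller for Kdm1a, Kdm3b, Kdm4a and Kdm5a and larger for Kdm5b. The median log2 difference of the 9 genes was 0.49 over 6 arrays, beside -0.17 for all genes, and 0.26 beside -0.10 without that array. All genes include many dim ones. Among the 10912 genes at least as bright as the median probe set, which include all 9, the median was -0.03 over 6 arrays. Quantile normalization of the 6 arrays gave 0.45 beside -0.02, and median centring 0.95 beside 0.29. The sign for Kdm2a, Kdm2b and Kdm6b turned to positive under median centring, and the sign for the other 6 was positive under each of these scalings.

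Related enzymes and partners were grouped in 11 lists of 83 entries, of which 78 were measured; 0 of these genes passed the test over 6 arrays. Among 16 other Jumonji and related proteins on autosomes, 2 rose and 0 fell in the 5-array fit, where 2.41% of all genes rose and 2.07% fell. The median log2 difference of the list was 0.07 in that fit. Kdm3a, the closest relative of Kdm3b, had log2 signals of 7.52, 8.47 and 8.48 in Pogz-WT and of 9.37, 9.40 and 9.32 in Pogz-KO. The genotypes were wholly apart, with a log2 difference of 1.21 over 6 arrays (adjusted p = 0.329) and of 0.89 in the 5-array fit (adjusted p = 0.00232). Jmjd1c, another member of the Kdm3 family, rose by 0.54 on the log2 scale in that fit (adjusted p = 0.0260; 0.0525 after quantile normalization). Hr, also of that family, read lower in all Pogz-KO arrays and did not pass the test, with -0.82 over 6 arrays (adjusted p = 0.331) and -0.64 in the 5-array fit (adjusted p = 0.303).

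The relatives on the sex chromosomes stand beside a difference in Y-linked signal between embryos. Mean log2 signal of 3 Y-linked genes was 6.74, 7.29 and 3.97 in Pogz-WT and 3.42, 2.15 and 7.30 in Pogz-KO, so the low arrays were Pogz-WT replicate 3 and Pogz-KO replicates 1 and 2. Kdm6a, the X-linked relative of Kdm6b, read 8.68, 8.74 and 9.58 in Pogz-WT and 9.80, 9.84 and 8.96 in Pogz-KO, highest in those 3 arrays. Kdm5c, the X-linked relative of Kdm5a and Kdm5b, read 7.67, 7.65 and 8.30 in Pogz-WT and 8.54, 8.56 and 8.34 in Pogz-KO. It was higher in Pogz-KO both among the arrays with low and among those with high Y-linked signal, and did not pass the test (adjusted p = 0.172 in the 5-array fit). None of the 5 genes of this list passed it, the Y-linked Kdm5d and Uty included. The third X-linked gene of the list, Phf8, an H3K9 and H4K20 demethylase, differed by 0.69 over 6 arrays (adjusted p = 0.371). With the Y-linked mean as a covariate in the 5-array fit, the log2 differences were 0.86 for Kdm5a (adjusted p = 0.0129) and 0.92 for Kdm5b (adjusted p = 0.0127). For Kdm1a it was 0.42, no longer past the threshold (adjusted p = 0.0741).

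Among 12 measured CoREST partners of Kdm1a, 2 rose and 0 fell in the 5-array fit. The zinc-finger protein Zmym2 had log2 signals of 8.52, 8.34 and 8.42 in Pogz-WT and of 9.02, 9.20 and 9.35 in Pogz-KO, wholly apart, with a log2 difference of 0.76 over 6 arrays (adjusted p = 0.329) and of 0.81 in the 5-array fit (adjusted p = 0.00716). Gfi1b, the erythroid repressor that recruits Kdm1a, rose by 0.59 on the log2 scale in that fit (adjusted p = 0.0307; 0.0559 after quantile normalization). Its relative Gfi1 did not pass the test, at 0.75 (adjusted p = 0.0701).

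The 7 measured PRC1.1 partners of Kdm2b had 0 genes past the threshold in the 5-array fit, and the largest moderated statistic over 6 arrays was that of the E3 ligase Rnf2, at 0.64 (adjusted p = 0.368). The 9 measured KDM5 and SIN3 partners likewise had 0, led by the Notch effector Rbpj at 0.76 over 6 arrays (adjusted p = 0.371). The 3 Kdm1b partners had 0, led by the H3K36 methyltransferase Nsd3 at 0.77 over 6 arrays (adjusted p = 0.408).

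Of the opposing methyltransferases, 0 of 6 for H3K4, 0 of 6 for H3K9 and 0 of 2 for H3K27 passed the threshold in the 5-array fit, and 1 of 4 for H3K36 rose. That gene was Nsd1, with log2 signals of 7.82, 8.06 and 7.89 in Pogz-WT and of 8.61, 8.69 and 8.60 in Pogz-KO. The genotypes were wholly apart, with a log2 difference of 0.71 over 6 arrays (adjusted p = 0.329) and of 0.66 in the 5-array fit (adjusted p = 0.0186). After quantile normalization of the 5 arrays the adjusted p was 0.0332 for Nsd1, 0.0128 for Zmym2 and 0.00452 for Kdm3a. Kmt2a, an H3K4 methyltransferase and so opposed to Kdm5a and Kdm5b, differed by -0.54 over 6 arrays (adjusted p = 0.415). Ezh2, the main H3K27 methyltransferase, differed by 0.35 (adjusted p = 0.525).

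For the supply of iron and 2-oxoglutarate to Jumonji enzymes, 0 of 8 measured genes rose and 2 fell in the 5-array fit. The mitochondrial iron importer Slc25a37 fell by 0.56 on the log2 scale (adjusted p = 0.00273), and the transferrin receptor Tfrc, named after its values were seen, fell by 0.41 (adjusted p = 0.0147). After quantile normalization the adjusted p was 0.0532 and 0.343. Idh1, which makes 2-oxoglutarate, differed by 0.57 over 6 arrays (adjusted p = 0.383).

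**Figure D4:**
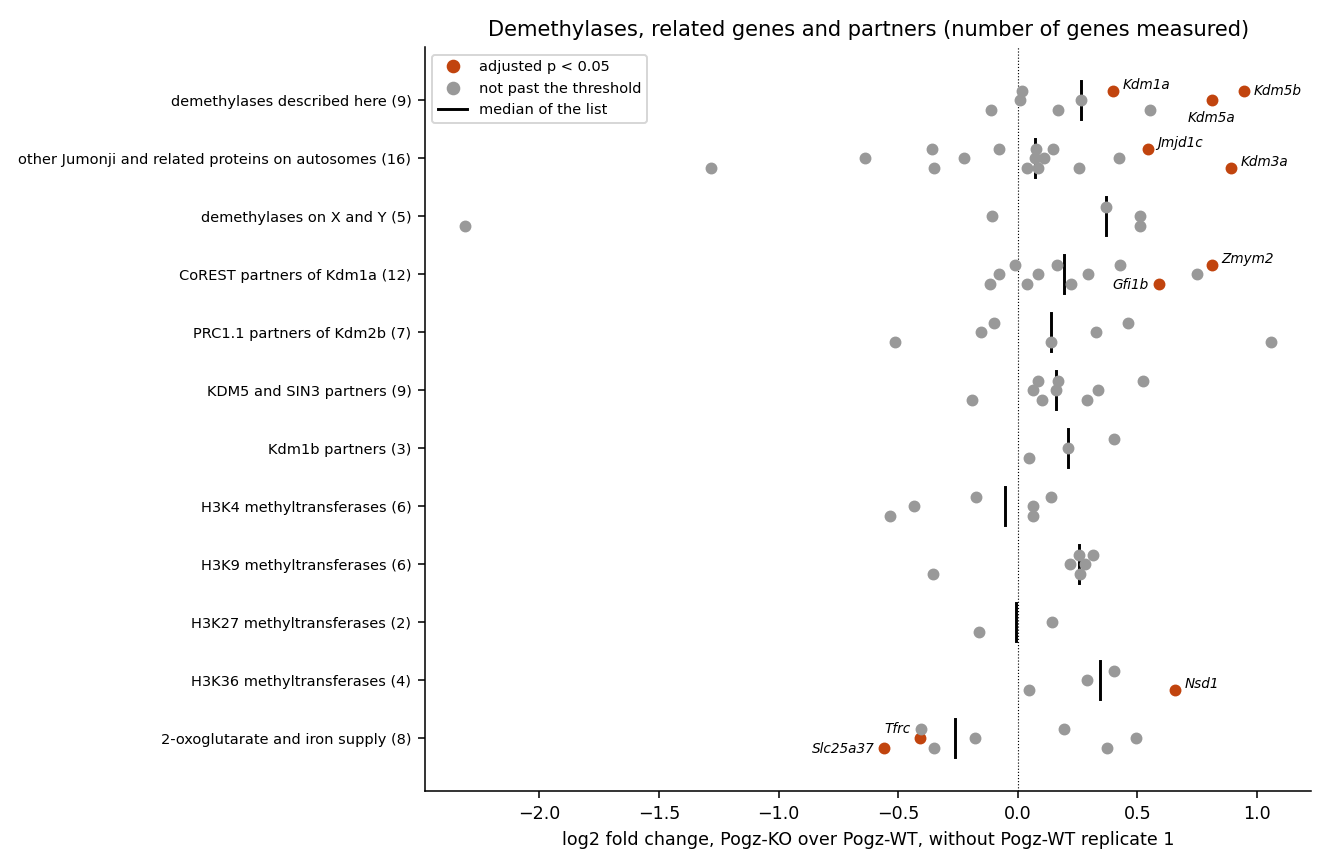
Log2 fold change of Pogz-KO over Pogz-WT without Pogz-WT replicate 1 (x axis) for the 9 demethylases and 11 lists of related genes and partners (rows, with the number of genes measured); each point is a gene, black bars are medians, and red points have an adjusted p under 0.05 over all genes. Red points are Kdm1a, Kdm5a, Kdm5b, Kdm3a, Jmjd1c, Zmym2, Gfi1b and Nsd1 to the right of 0 and Tfrc and Slc25a37 to the left.

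Markers of cell types in FL moved with genotype beside these results. In the 5-array fit 3 of 7 erythroid markers fell (Alas2, Slc4a1 and Klf1) and 0 rose, and their summed intensity was 51499 to 75438 in Pogz-WT (51499 to 51534 without replicate 1) and 36174 to 38479 in Pogz-KO. Sums here are over all 6 arrays unless stated. Of 7 progenitor markers 2 rose (Kit and Myb) and 0 fell, with sums of 2126 to 2832 and 3349 to 3718. Of the rest, Gata2 (-0.43), Cd34 (-0.19), Meis1 (-0.47) and Hoxa9 (-0.68) were lower and Flt3 (0.28) higher in the 5-array fit, without passing. The median log2 difference of the list was -0.19 there, and Myb, the brightest, weighs most in the sums. Of 8 granulocyte markers 4 rose (Camp, Ctsg, Lcn2 and Ltf) and 0 fell, with sums of 15441 to 18938 and 19297 to 21451. Of 6 hepatoblast markers 1 fell (Afp), with sums of 27399 to 50463 and 16860 to 26877. Afp was the brightest of them and weighs most in these sums. Alb was higher in the 5-array fit, by 0.41 on the log2 scale, and Ttr, Apoa1, Apoa2 and Hnf4a lower, none of them passing. Of the markers of macrophages (7), B cells (5), megakaryocytes (5), and endothelium and stroma (8), 0 passed. Their sums were 4392 to 5447 in Pogz-WT and 3061 to 4027 in Pogz-KO for macrophages, 215 to 447 (215 to 288 without Pogz-WT replicate 1) and 145 to 184 for B cells, 4205 to 4690 and 3539 to 4361 for megakaryocytes, and 581 to 904 and 463 to 502 for endothelium and stroma. No marker of any list had an intensity of 0. After quantile normalization of the 5 arrays 1 erythroid marker fell (Slc4a1), Afp did not pass (adjusted p = 0.290), and 3 granulocyte and 2 progenitor markers rose, Ltf no longer passing (adjusted p = 0.0730). Over 6 arrays 0 markers passed in plain limma, and Camp alone passed with trend and robust (adjusted p = 0.0290, 2.24-fold). The part of cell composition in the demethylase values was not tested.

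The gene most like Kdm5a over the 6 arrays was Prkcd, a protein kinase C, with a Pearson r of 0.997, followed by Dennd5a at 0.995 and Syncrip, an RNA-binding protein, at 0.994. These were picked as the highest among all genes, and the 6 arrays share their genotype groups and the scaling, so r is given as a description. Pogz itself does not check the genotype here, since it is not known whether its probe sets fall in the deleted exons. Its brightest probe set, 1455046_a_at, read 9.17, 9.03 and 8.95 in Pogz-WT and 9.16, 9.22 and 9.33 in Pogz-KO, which overlapped.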

How the data were processed

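RNA from 6 E14.5 livers, 3 Pogz-WT and 3 Pogz-KO, was labelled (100 ng) and hybridized to 1 array each. The deposited values are linear intensities per probe set that the authors made with Affymetrix Expression Console (version and algorithm not given in the sources used here). Each array has the same trimmed mean of 150 (2% trimmed), so the arrays were scaled but not quantile normalized, and compression of dim values is not known.

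Intensities were taken to log2 with no pseudocount. The 64 control probe sets were left out. Of the rest, 34945 had 1 gene in the platform annotation, 932 several and 9160 none, and 34741 of the first kind had a current RefSeq symbol. The brightest of its probe sets over all arrays stands for a gene. Probe sets were tested with limma 3.58.1 (lmFit and eBayes, R 4.3.3), two-sided, with genotype as the only term and Benjamini-Hochberg adjustment over all 18193 genes or all 45037 probe sets. A call needs an adjusted p under 0.05 and at least 1.5-fold. The scripts were tested on simulated data.

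The demethylases and all lists were chosen with earlier results of these data known, as was the fit without Pogz-WT replicate 1, which leaves 2 Pogz-WT arrays. Text names all 9 demethylases, the genes of each other list with the 3 largest moderated statistics over 6 arrays (not all are described), and the 3 genes most like Kdm5a. Samples of 1 genotype are labelled as biological replicates; their litters are not given. Replicate numbers did not pair the samples. The number of arrays limits the precision.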

Additional observations from a re-analysis of the deposited data

How the results depend on the processing

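Across 21 alternatives for each of the 9 demethylases, 157 values kept their sign and their side of the threshold, 11 passed it where the 6-array test did not, and 21 changed sign. The changes of sign were as follows, on the log2 scale. For Kdm2a the value was 0.32 under median centring with either variance model, 0.16 under median centring without Pogz-WT replicate 1, and 0.23 for the mean of its probe sets. For Kdm2b it was 0.40 under median centring with either variance model and 0.28 under median centring without Pogz-WT replicate 1. It was 0.0070 without that array in both variance models, 0.019 when the Y-linked covariate was added, and 0.088 for the mean of probe sets; leaving out each array in turn gave -0.104 to 0.0070. For Kdm4a and Kdm5a it was -0.38 and -0.026 for the mean of probe sets, which for each gene includes a probe set dimmer than the median. For Kdm6b it was 0.23 under median centring with either variance model, 0.29 under median centring without Pogz-WT replicate 1, 0.017 without that array in both variance models, 0.0014 with the Y-linked covariate added, and 0.71 for the mean of probe sets; leaving out each array in turn gave -0.59 to 0.038, positive without Pogz-WT replicate 1 or Pogz-KO replicate 2. The cause was not tested, and none of these values passed the threshold.

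Genes called (at least 1.5-fold apart, adjusted p under 0.05) numbered 0 over 6 arrays and 22 with trend and robust. They numbered 497 with trend and robust without Pogz-WT replicate 1, 423 after quantile normalization of those arrays, 1404 after median centring, and 456 with the Y-linked covariate. Of the 9 demethylases 2, 2, 3 and 2 were called in these fits, Kdm1a being the third under median centring. Kdm3b had an adjusted p of 0.0134 in that limma fit but was 1.45-fold higher, under the fold threshold. Probe sets called numbered 17 with trend and robust over 6 arrays, and 805, 704, 2341 and 566 in those 4 fits, with 4, 3, 9 and 3 of the 29 among them. Trend and robust over 6 arrays with quantile normalization called 9 genes and 8 probe sets, and with median centring 4 genes and 6 probe sets. The unpaired t-test called 1 probe set. All 3 Pogz-KO arrays were above Pogz-WT for 8 demethylases after median centring. The covariate without Pogz-WT replicate 1, trend and robust with a scaling over 6 arrays, and the overlap counts under scalings were chosen after seeing the data.

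Plain limma that left out each array in turn called 0 genes each time. The replicate block called 0 genes and 0 demethylases, as without it, and deviations of same-numbered arrays correlated at -0.005 to 0.008. Of the 29 probe sets 6 are dimmer than the median probe set.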

Other observations

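The probe set 1440346_at, annotated to Kdm6b and 1700064E03Rik together, had log2 signals of 5.78, 5.64 and 5.75 in Pogz-WT and of 5.87, 5.30 and 5.87 in Pogz-KO, which overlapped. Of the other Pogz probe sets, 1454827_at read 3.56, 4.98 and 2.84 in Pogz-WT and 6.04, 5.94 and 5.92 in Pogz-KO, wholly apart, with an adjusted p of 0.0913 in the 5-array fit over probe sets. Another, 1457748_at, was also wholly higher in Pogz-KO, at 4.82, 4.58 and 2.54 in Pogz-WT and 5.83, 5.39 and 5.15 in Pogz-KO (adjusted p = 0.173 in that fit), so 2 of the 4 Pogz probe sets were wholly higher. The Pogz probe set 1434650_at overlapped, at 6.83, 6.00 and 6.60 in Pogz-WT and 6.08, 5.35 and 6.25 in Pogz-KO.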
